A study of Mus musculus with 3 samples.

Results

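The genes described here make, load and turn over MHC class II, the surface molecule that shows peptides from ingested material to CD4+ T cells. They were 9 genes chosen by name: the chains H2-Aa, H2-Ab1 and H2-Eb1, the loading factors H2-DMa, H2-Oa and Cd74, the transactivator Ciita, the protease Ctss and the ubiquitin ligase Marchf1. The platform annotation gave 19 probe sets to these genes alone, of 34945 probe sets given to 1 of 18193 genes in all. Each of the 9 genes had a probe set above the floor, a scaled signal of 32.5 explained below, on all 3 arrays, so none was lost to the filter on low signals.

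Mouse dendritic cells had been grown from bone marrow with GM-CSF (10 ng/ml) over 10 days and measured on Affymetrix mouse expression arrays. The groups were BMDC(-), which received no agent, BMDC(+LPS), given lipopolysaccharide at 10 ng/ml for 3 h, and BMDC(+LPS+cAMP), given the same LPS together with 100 µM 8-Br-cAMP, a cell-permeable form of cyclic AMP, for 3 h. All 3 groups share the GM-CSF culture. The sources used here give no strain, sex or age of the mice. Each group is 1 array, so the differences below have neither a test nor a check by replicates.

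In the endoplasmic reticulum, class II alpha and beta chains pair and bind the invariant chain, encoded by Cd74, which blocks the groove and steers the complex to endosomes. There cathepsin S, encoded by Ctss, trims the invariant chain, and H2-DM exchanges the remaining fragment for peptide under restraint by H2-DO. Ciita binds no DNA itself but joins the factors on the X and Y boxes of class II promoters, and Marchf1 ubiquitinates surface class II and Cd86 for removal. Dendritic cells that mature are known to shut down Ciita and Marchf1 and to keep class II at the surface for longer.

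The class II promoters are shown because the X and Y boxes tie the chain genes to Ciita. RefSeq windows of mouse build GRCm38.p6, from 250 bases before to 50 after the transcription start, were held for 6 of the 9 members in 9 windows, but not for H2-Ab1, Cd74 or Ciita. Capitals mark the letters GCAAC of the X box core, TGATTGG of the Y box core, and in H2-Aa the cAMP response element TGACGTCA between them. In Ctss they mark GAAA, any 2 bases and GAAA again, letters of the interferon response element. The lines are H2-Aa at chr17:34287774-34288073 on the minus strand, H2-Eb1 at chr17:34305617-34305916, H2-Oa at chr17:34092129-34092428 and Ctss at chr3:95526536-95526835, the last 3 on the plus strand, each printed 5′ to 3′ along its gene.
H2-Aa: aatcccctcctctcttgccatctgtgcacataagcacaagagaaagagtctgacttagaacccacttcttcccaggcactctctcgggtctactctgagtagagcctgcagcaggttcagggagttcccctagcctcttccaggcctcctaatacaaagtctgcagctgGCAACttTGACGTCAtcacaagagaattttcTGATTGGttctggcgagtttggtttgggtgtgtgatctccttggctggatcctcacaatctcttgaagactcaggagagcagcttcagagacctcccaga
H2-Eb1: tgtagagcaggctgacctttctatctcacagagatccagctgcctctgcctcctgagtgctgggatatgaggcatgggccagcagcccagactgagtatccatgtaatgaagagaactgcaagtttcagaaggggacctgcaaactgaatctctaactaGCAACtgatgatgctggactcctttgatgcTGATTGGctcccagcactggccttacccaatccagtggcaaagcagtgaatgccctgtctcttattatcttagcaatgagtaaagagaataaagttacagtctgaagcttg
H2-Oa: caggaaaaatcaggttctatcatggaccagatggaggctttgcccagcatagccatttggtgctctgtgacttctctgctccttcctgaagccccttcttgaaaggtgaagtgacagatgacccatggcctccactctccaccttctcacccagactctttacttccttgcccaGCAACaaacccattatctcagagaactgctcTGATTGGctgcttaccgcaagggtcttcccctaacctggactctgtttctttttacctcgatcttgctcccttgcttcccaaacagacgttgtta
Ctss: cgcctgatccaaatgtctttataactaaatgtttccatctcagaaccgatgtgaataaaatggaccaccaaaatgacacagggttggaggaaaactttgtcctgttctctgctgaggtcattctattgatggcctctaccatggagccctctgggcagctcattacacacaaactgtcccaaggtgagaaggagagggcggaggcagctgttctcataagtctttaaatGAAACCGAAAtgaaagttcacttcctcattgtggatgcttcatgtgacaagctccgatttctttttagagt

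GCAAC followed on the same strand after 20 to 30 bases by TGATTGG was found in 3 of the 6 members with a window, H2-Aa, H2-Eb1 and H2-Oa. The gap between the boxes was 26 bases in H2-Aa, 25 in H2-Eb1 and 26 in H2-Oa, and the Y box core ended 44, 55 and 39 bases before the start in the same order. Of all 32851 windows of that length, searched on both strands, 0.103% held such a pair, 7.82% held TGATTGG and 35.2% held GCAAC. The gap limits were set after these 3 windows had been read. A match is a description and not a binding site, and where none was found only these letters are absent from the window. Of 4 other class II chain genes with a window, H2-Ob and H2-Eb2 held the pair, and H2-DMb1 and H2-DMb2 held TGATTGG without GCAAC.

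**Figure D1:**
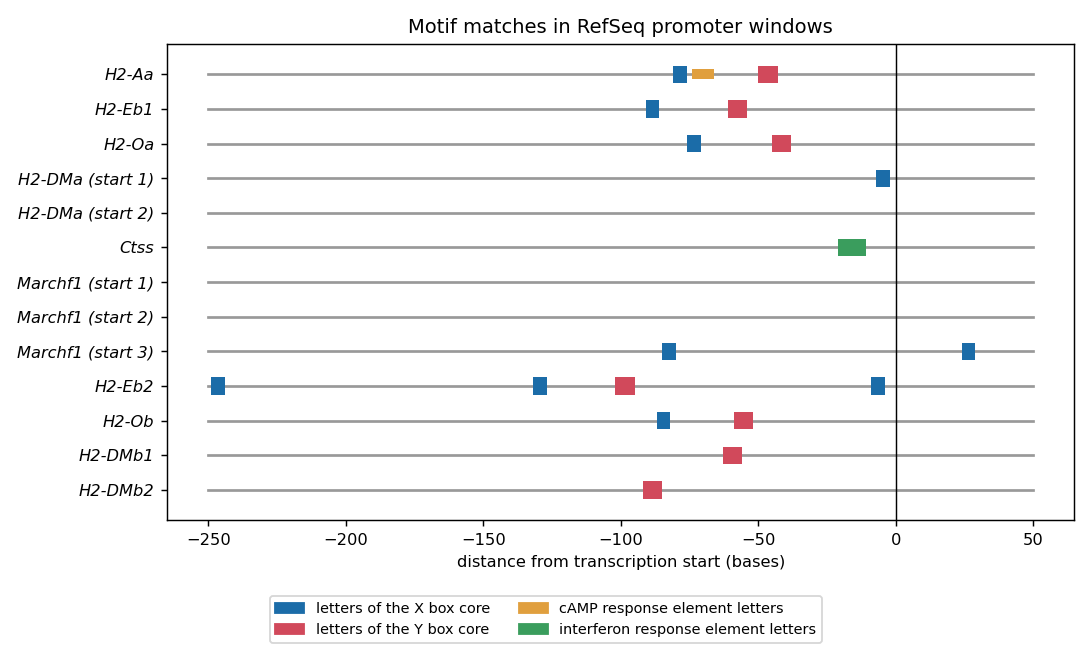
Motif matches on either strand in RefSeq promoter windows, one line per transcription start; the x axis is distance from the start in bases, and bars cover the matched letters. In the 5 windows that hold the spaced pair, that pair lies between 39 and 132 bases before the start, and the cAMP response element lies between them in H2-Aa only.

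TGACGTCA was found in H2-Aa alone among the members with a window, 67 to 74 bases before its start, and in 1.79% of all windows. Among the members the interferon response letters were found in Ctss alone, 12 to 21 bases before its start. They were also in the window of Sppl2a, a pathway gene described below, across its start, and in 3.44% of all windows. CCAAT, whose complement ATTGG lies within TGATTGG, was in 37.4% of windows and in 5 of the 6 members. No spaced pair, TGATTGG, TGACGTCA or interferon response letters were found in the 2 windows of H2-DMa or the 3 of Marchf1. Both windows of H2-DMa, chr17:34122582-34122881 and chr17:34125268-34125567, lie inside its annotated span, chr17:34119693-34139101. Other starts of that gene were not searched.

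The 8-Br-cAMP array stood apart in ways that touch every comparison with it. Its deposited median was 19.8 against 33.5 with LPS and 42.6 unstimulated, and the arrays were scaled to a common trimmed mean by factors of 1.63, 0.929 and 0.763 in that order. Signals under 32.5, the highest array median after scaling, were set to that floor before log2 was taken. Xist, the RNA of the inactive X chromosome, read 1716 there and was under the floor on the other arrays. The Y-linked Eif2s3y, Uty and Kdm5d were under the floor there and above it on both others by their brightest probe sets. The labels give no sex, so in each comparison with that array the effect of 8-Br-cAMP and a difference in the sex of the mice cannot be told apart. Of 10 granulocyte markers all were above the floor on each array, and their summed scaled signal was 37035 unstimulated, 40929 with LPS and 19928 with 8-Br-cAMP. All 10 were lower from LPS to both agents, with a median log2 difference of -1.54. At least 2-fold lower were 7 of them, against 5.81% of all genes. Of 10 B cell markers on the array, 8, 6 and 6 were above the floor in the same order. Their sum was 3830, 1889 and 423.6. Ighm, at 3086, 1495.1 and 52.5, was most of it unstimulated and with LPS but not with 8-Br-cAMP. B cells also carry class II. With LPS all 8 measured B cell markers were lower, and from LPS to both agents 4 of 8 were higher and 4 lower, with a median of -0.057. For this and the marker lists below, 38.2% of all genes were higher with LPS and 53.2% from LPS to both agents. Cd79a, a defining marker, read 71.6, 37.7 and, under the floor, 3.07, while its partner Cd79b read 97.9, 46.6 and 49.99. The 9 dendritic markers summed to 5020, 4684 and 7704, most of the gain being Ccr7 at 1122, 1457 and 4129. From LPS to both agents 6 of 8 measured were higher, while Itgax (1518, 1347 and 1165) and Zbtb46 (77.2, 121 and 95.0) were lower. Xcr1 was under the floor throughout. All 9 macrophage and monocyte markers on the array were above the floor throughout, with sums of 36977, 37721 and 37627. From LPS to both agents 6 of these 9 were lower, with a median of -0.61, and Lyz2 went from 10669 to 15617. The summed scaled signal of the 9 class II genes was 41662, 46441 and 56613. As deposited, 0 of the 9 were higher with both agents than with LPS. Their median log2 difference was then -0.62 and that of all genes -0.65. The part of these other cells in the class II signals was not tested, and fewer cells of a type and less RNA per cell cannot be told apart.

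The chain genes and Cd74 had high signals on every array and differed by at most 1.23-fold between unstimulated and LPS-treated cells. Their LPS differences, 0.19 to 0.30 on the log2 scale, were all below 0 under spike scaling, from -0.20 to -0.084. H2-Aa, the alpha chain of I-A, read 8332 unstimulated, 10014 with LPS and 13876 with both agents by its brightest probe set. Both agents here means LPS together with 8-Br-cAMP. The log2 difference was 0.27 with LPS, and with both agents the signal was 1.39-fold that with LPS. Its place on its own array, which no scaling by a factor changes, was percentile 99.902, 99.944 and 99.929 of all probe sets.

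The 4 probe sets of H2-Aa went the same way with LPS, by log2 differences of 0.081 to 0.27. They parted with 8-Br-cAMP: beside 0.47 for the brightest stood 0.51, -0.26 and -0.14. The probe set at -0.26 read 7978, 9486 and 7914. All 4 have the suffix _x or _s, which Affymetrix gives to probe sets that can match other transcripts, so the direction with 8-Br-cAMP is not settled for this gene.

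H2-Ab1, the beta chain of I-A, read 6184, 7634 and 7657 in the order unstimulated, LPS, LPS+8-Br-cAMP. A second probe set read 5857, 6652 and 6507, and the third, with suffix _x, 3468, 3847 and 2497. With LPS all 3 were higher, by 0.15 to 0.30 on the log2 scale. The brightest pair differed by 0.0044 and -0.032 between LPS+8-Br-cAMP and LPS, while the third differed by -0.62.

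H2-Eb1, the beta chain of I-E, had a single probe set, at 6624 unstimulated, 7753 with LPS and 8526 with both agents. Its log2 differences were 0.23 with LPS and a further 0.14 with 8-Br-cAMP, which was -0.23 under quantile normalization, -0.22 under cyclic loess and -0.67 as deposited.

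Cd74, the invariant chain, read 8500 unstimulated, 9664 with LPS and 13714 with both agents. The differences were 0.19 with LPS and 0.50 from LPS to LPS+8-Br-cAMP, a 1.42-fold higher signal. That second value was -0.013 under quantile normalization and -0.30 with the signals as deposited, so its sign rests on the scaling.

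**Figure D2:**
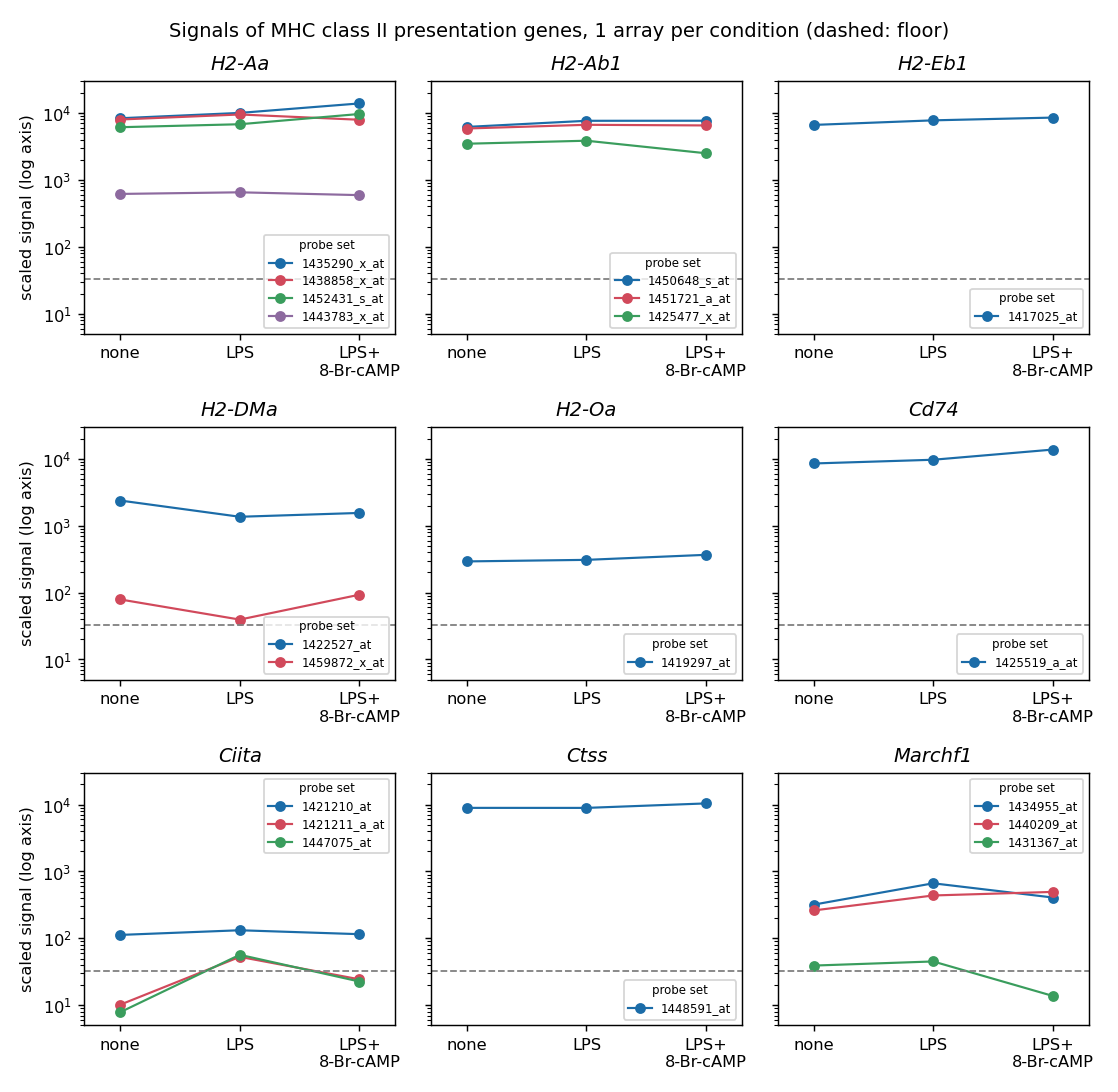
Scaled signal (log axis) of every probe set of the 9 genes on the unstimulated (none), LPS and LPS+8-Br-cAMP arrays; each line joins 1 probe set over 3 single arrays and the dashed line is the floor of 32.5. H2-Aa, H2-Ab1, H2-Eb1, Cd74 and Ctss run nearly level, H2-DMa dips with LPS and the brightest Marchf1 probe set peaks with LPS.

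The loading factors split. H2-DMa, the alpha chain of the peptide exchanger H2-DM, read 2376 unstimulated, 1358 with LPS and 1549 with both agents. The LPS value was 1.75-fold lower than the unstimulated value, a log2 difference of -0.81. A dim second probe set read 79.0, 39.5 and 92.9, thus 2.001-fold lower with LPS but back above the unstimulated value with 8-Br-cAMP. H2-Oa, the alpha chain of the H2-DM inhibitor H2-DO, read 292 unstimulated, 308 with LPS and 367 with both agents. Its differences were 0.077 and 0.25. The first was -0.31 under spike scaling and -0.21 as deposited, and the second was -0.56 as deposited.

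H2-DMa was the member that stood lowest against the others with LPS. Set against the median of H2-Aa, H2-Ab1, H2-Eb1 and Cd74 on the same arrays, a contrast that no scaling by a factor moves and that was chosen after seeing the values, its log2 difference was -1.05. Over the 11 settings tried it lay between -1.22 and -0.98. By construction the settings that scale by a factor or move the floor return the same value, so only the others could change it. With 8-Br-cAMP relative to LPS alone the contrast was -0.11 and took either sign, from -0.12 to 0.57.

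Ctss, the cathepsin that trims the invariant chain in dendritic cells, read 8922 unstimulated, 8914 with LPS and 10401 with both agents. The LPS difference was -0.0013 and the 8-Br-cAMP difference 0.22, which was -0.23 under quantile normalization, -0.17 under cyclic loess and -0.59 as deposited. Its promoter holds the interferon response letters shown above. Under trimmed mean scaling its LPS and unstimulated signals were the closest of the 9 genes. That LPS difference was -0.17 under quantile normalization, -0.22 under cyclic loess and -0.39 under spike scaling, where other members were closer.

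Ciita, the transactivator, was dim, at 113 unstimulated, 132 with LPS and 115 with both agents by its brightest probe set. Those values differ by 0.23 and -0.19 on the log2 scale. Its other probe sets were under the floor unstimulated and with LPS+8-Br-cAMP, and read 52.9 and 56.8 with LPS. They were at least 1.63-fold and 1.75-fold higher with LPS than unstimulated, and likewise than with LPS+8-Br-cAMP. By scaled signal all 3 probe sets were thus highest with LPS, and the 2 dim ones were above the floor there alone. The LPS difference of the brightest was -0.16 under spike scaling and -0.052 as deposited, so its sign rests on the scaling.

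Marchf1, the ligase that removes class II from the surface, read 319 unstimulated, 665 with LPS and 408 with both agents by its brightest probe set. With LPS it was 2.09-fold higher, a log2 difference of 1.06. A second probe set read 261, 438 and 495, and a dim one read 39.2, 45.2 and, under the floor, 13.8. All 3 were higher with LPS (1.06, 0.74 and 0.20). From LPS to LPS+8-Br-cAMP the brightest differed by -0.71 and the second by 0.18, so the probe sets gave opposite directions there.

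Marchf1 was thus 1 of 9 members past 2-fold upward with LPS, and 0 of 9 were past it downward. Of all 12283 genes measured there, 6.64% were past 2-fold upward, 13.0% downward and 19.6% either way. By sign 7 of 9 members were higher with LPS, against 38.2% of all genes, and by probe set 16 of 19, the exceptions being both of H2-DMa and that of Ctss. The members' median log2 difference was 0.23 and that of all genes -0.21. This median turned to -0.16 when arrays were scaled by the hybridisation spikes, with 1 of 9 members higher, and to -0.057 with the signals as deposited. Set against the median of all genes it was 0.43, and between 0.13 and 0.44 over all scalings.

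The call of Marchf1 and the absence of one for H2-DMa traded places with the scaling. Under spike scaling the member past 2-fold was H2-DMa (-1.20) and Marchf1 differed by 0.67, and the signals as deposited gave the same exchange. Under quantile normalization both were past 2-fold. With a pseudocount, and with the mean over probe sets, 0 members were. Of all genes 30.2% were past 2-fold under spike scaling, 26.7% as deposited and 17.7% under quantile normalization. The shares were 14.3% with a pseudocount and 16.5% with the mean over probe sets. The error of 1 probe set, taken from how far the 2 brightest probe sets of a gene disagreed, was 0.49 on the log2 scale over 5320 genes, and 0.28 over 250 genes whose probe sets both exceeded 1000. It is no spread between cultures. With LPS 7 of the 9 members differed by less than 0.49, while Marchf1 and H2-DMa differed by more. Of the bright members H2-Ab1 (0.30) and H2-DMa exceeded 0.28.

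**Figure D3:**
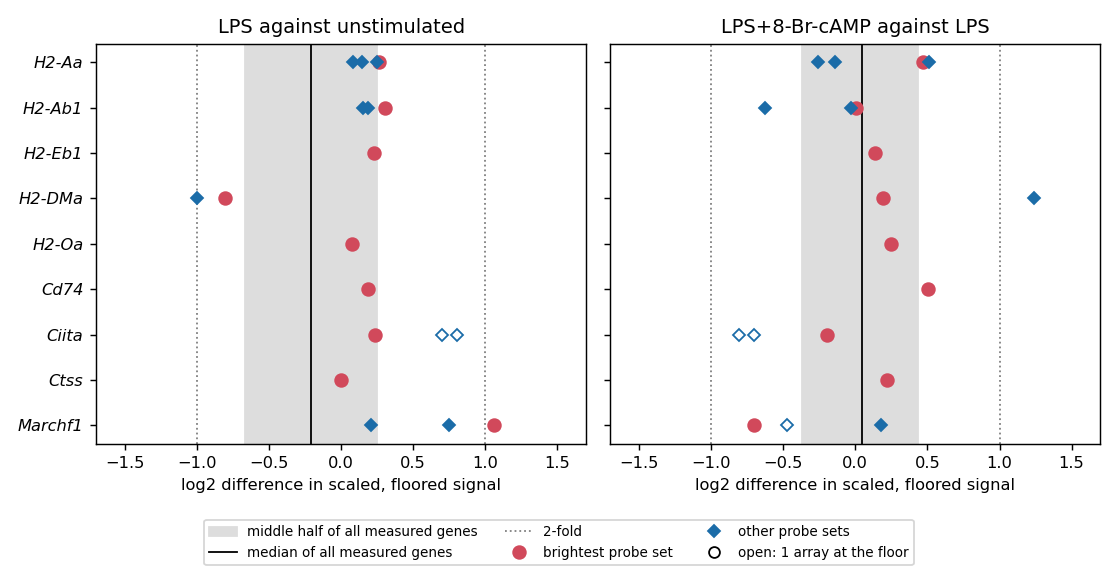
Log2 differences of each probe set of the 9 genes, with LPS against unstimulated on the left and LPS+8-Br-cAMP against LPS on the right. The grey band runs from the lower to the upper quartile of all measured genes, the solid line their median (-0.21 and 0.049), dotted lines are 2-fold, and open symbols have 1 array at the floor. With LPS the probe sets of each gene share a side of 0, and with 8-Br-cAMP those of H2-Aa, H2-Ab1 and Marchf1 straddle it.

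Between LPS+8-Br-cAMP and LPS, 0 of the 9 genes were past 2-fold either way by their brightest probe sets, where 12.3% of 12572 genes were, 6.49% upward and 5.81% downward. The members' median was 0.19 against 0.049 for all genes. By sign 7 of 9 were higher, Marchf1 and Ciita being lower, but by probe set only 10 of 19, and 53.2% of all genes were higher. Of 5 members with several measured probe sets, 3 disagreed with themselves here and 0 with LPS. The members' median was -0.12 under quantile normalization and under cyclic loess, with 2 and 4 of 9 members higher, and -0.62 with the signals as deposited, with 0 higher. Set against the median of all genes in the same setting it was 0.14 in the main scaling and -0.17 under both of those normalizations. It was 0.18 under spike scaling and 0.030 as deposited, where all genes had a median of -0.65. The error of 1 probe set was 0.53 over all genes and 0.27 over bright ones.

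Marchf1 stood lowest of the members against the chain genes with 8-Br-cAMP by the brightest probe sets, but with the mean over probe sets Ciita stood lower, at -0.71 against -0.47. Its contrast with the median of H2-Aa, H2-Ab1, H2-Eb1 and Cd74 was -1.01 and lay between -1.01 and -0.47 over the 11 settings. Scaling by a factor and the other floors could not move that contrast either. Its second probe set, at 0.18, was not part of that range except through the mean over probe sets. With LPS the same contrast was 0.81, between 0.47 and 1.06.

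**Figure D4:**
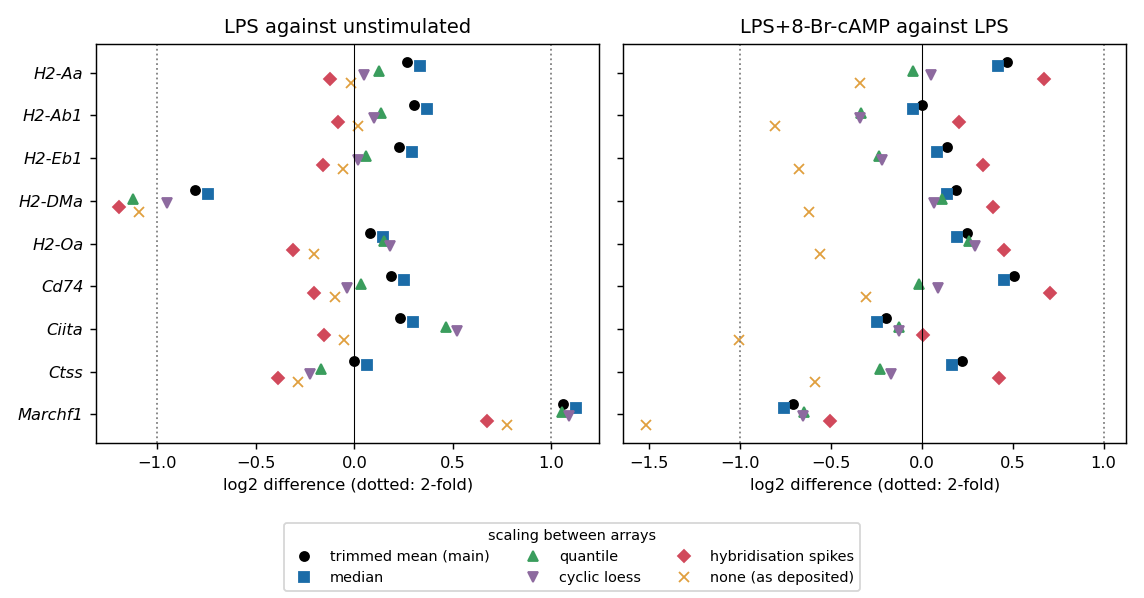
Log2 difference of each gene's brightest probe set under 6 ways to scale the arrays, with LPS against unstimulated on the left and LPS+8-Br-cAMP against LPS on the right; dotted lines are 2-fold. H2-DMa lies below 0 and Marchf1 above it on the left under every scaling shown. The chain genes, Cd74, H2-Oa, Ciita and Ctss each cross 0 there.

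Against unstimulated cells, which share arrays with both comparisons above, LPS+8-Br-cAMP gave log2 differences of 0.74 for H2-Aa, 0.69 for Cd74, 0.36 for H2-Eb1 and 0.31 for H2-Ab1. Under quantile normalization the same 4 genes gave 0.076, 0.019, -0.17 and -0.20. As deposited, where all genes had a median of -1.08, all 4 were below 0. These directions thus rest on the scaling. Other probe sets of H2-Aa gave -0.012 and -0.059 and one of H2-Ab1 -0.47, and all 4 members with several measured probe sets disagreed with themselves. H2-DMa differed by -0.62 and Marchf1 by 0.36 (0.92 by its second probe set). In this comparison 0 of 9 members were past 2-fold, where 25.1% of 12793 genes were, 9.36% upward and 15.8% downward. The error of 1 probe set was 0.62, or 0.38 among bright ones.

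Marchf1 was the member past 2-fold, and its pattern over the 3 arrays was compared with 8808 other genes above the floor on all of them. Likeness was the Euclidean distance between the log2 differences of both treated arrays from the unstimulated one, 1.06 (LPS) and 0.36 (both agents) for Marchf1. The nearest were Endod1 at 1.06 and 0.37 (distance 0.015), Smarce1 at 1.03 and 0.33 (0.042) and Nmnat2 at 1.01 and 0.34 (0.050). With 3 arrays many patterns lie close, and 11 genes were within 0.1.

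The other genes of the pathway came from a list of 24, of which 22 were measured with LPS and 23 in the comparisons with 8-Br-cAMP. With LPS 2 were at least 2-fold higher, Cd86 and Sppl2a, and 1 lower, Marchf8, with a median of -0.061, where all genes gave 6.64% upward, 13.0% downward and a median of -0.21. With LPS+8-Br-cAMP against LPS 3 were higher, Cd83, H2-Ea and H2-Eb2, and 0 lower, with a median of -0.071, where all genes gave 6.49%, 5.81% and 0.049. Cd86 passed 2-fold with LPS under all 6 scalings, Sppl2a under all but the spikes and the deposited signals, and Marchf8 under all but quantile and loess normalization. Cd83 and H2-Ea passed with 8-Br-cAMP under every scaling but the deposited signals, where 0 genes of the list were higher and 8 lower. Of all 10302 genes measured in the deposited signals, 93 were past 2-fold upward and 2882 downward.

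Among the other chains, H2-DMb2, the beta chain partner of H2-DMa, read 702 unstimulated, 464 with LPS and 577 with both agents. Its probe sets differed by -0.60, -0.94 and -0.13 with LPS, each below 0 as for H2-DMa. A brighter probe set that the annotation gives to H2-DMb2 and H2-DMb1 together read 1229, 1296 and 1236, a difference of 0.077 with LPS, so the probe sets for the beta chains disagreed. H2-Ob, the beta chain of H2-DO, read 117, 104 and 81.6. H2-Ea, the alpha chain of I-E, which some mouse strains lack, was under the floor unstimulated and with LPS and read 85.0 with 8-Br-cAMP, at least 2.61-fold higher than with LPS. H2-Eb2 read 36.4, under the floor at 11.9, and 73.9. Both are dim, and the other 2 probe sets of H2-Ea were under the floor on all arrays.

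Of 7 factors that sit on class II promoters, 0 were past 2-fold in either comparison under trimmed mean scaling. Rfx5, the DNA-binding subunit of the X box factor, read 169 unstimulated, 268 with LPS and 198 with both agents. Rfxap, its partner, read 124, 89.4 and 71.4. Nfyb, a Y box subunit, read 118, 210 and 219, a log2 difference of 0.83 with LPS, which passed 2-fold under quantile and loess normalization, and its dimmer probe set differed by 1.67. Creb1, which binds cAMP response elements, read 415, 398 and 251, a difference of -0.67 with 8-Br-cAMP that its next probe set did not share (0.046), and a dim one was highest with LPS at 41.5, 124 and 53.8.

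Among 9 lysosomal genes Sppl2a, the membrane protease that clears the last Cd74 fragment, read 575 unstimulated, 1273 with LPS and 1081 with both agents. It was 2.21-fold higher with LPS, and its other probe sets were 2.68-fold and 2.46-fold higher. With 8-Br-cAMP they parted: -0.24 and 0.35 for the brighter pair, but 2.79 for the dimmest, at 54.1, 133 and 923. Lgmn, an asparagine-specific protease, read 2923, 1641 and 1303 (-0.83 with LPS). Ifi30, the thiol reductase that unfolds antigens, read 2897, 1965 and 2667, and Ctsh 5020, 3496 and 4049, both like H2-DMa lowest with LPS and under 2-fold. Cst3, an inhibitor of cathepsins, read 5163, 4944 and 8135, a difference of 0.72 with 8-Br-cAMP. Ctsl and Ctsz, further cathepsins, differed by 0.25 and 0.36 with LPS, and the 5 probe sets of Ctsb ranged from -0.78 to 1.15.

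Of 3 genes of surface turnover, Cd86 and Marchf8 passed 2-fold with LPS and Cd83 with 8-Br-cAMP against LPS. Against unstimulated cells all 3 passed with both agents, by 2.51 for Cd86, 2.18 for Cd83 and -1.46 for Marchf8. Cd86, a costimulatory molecule and also a substrate of Marchf1, read 496 unstimulated, 2415 with LPS and 2824 with both agents, 4.87-fold higher with LPS. Its second probe set was 2.26-fold higher with LPS and a further 2.21-fold with 8-Br-cAMP. Cd83, which opposes Marchf1 at the surface, read 949, 1493 and 4288, 2.87-fold higher with LPS+8-Br-cAMP than with LPS. Marchf8, the closest relative of Marchf1, read 147, 66.3 and 53.3. It was 2.21-fold lower with LPS, the reverse of Marchf1.

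**Figure D5:**
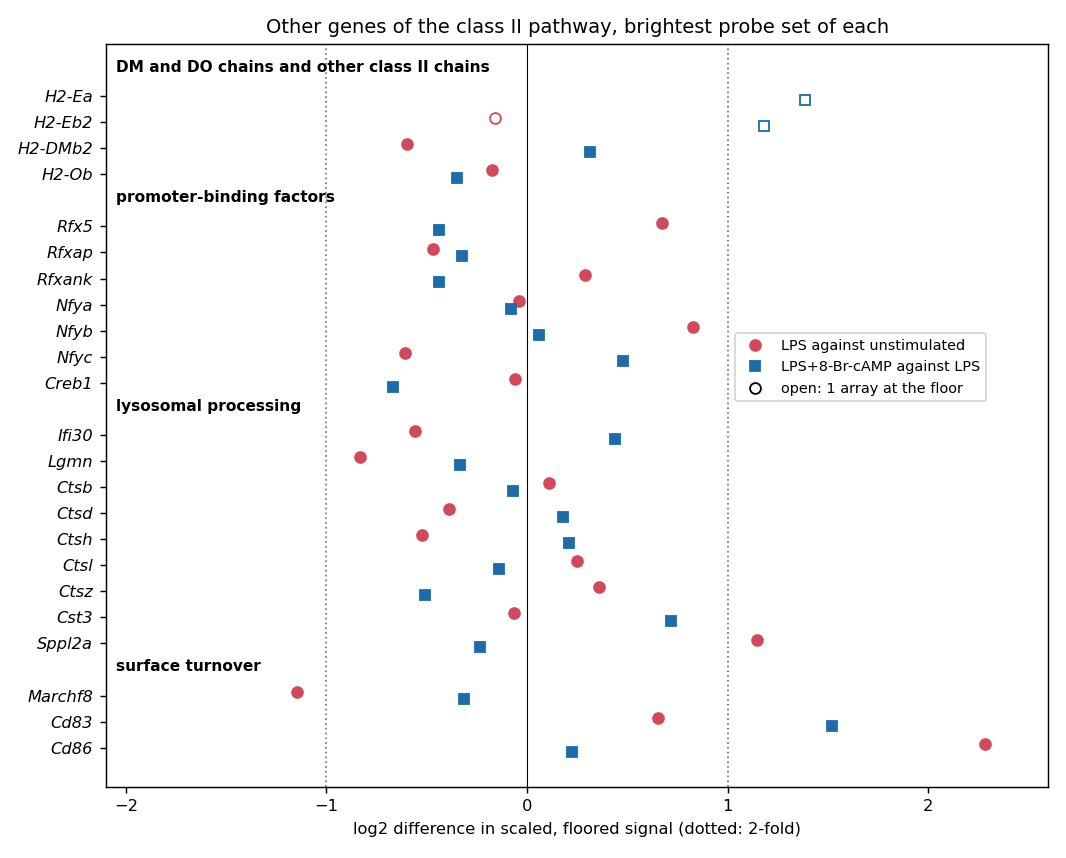
Log2 differences of 23 further class II pathway genes by their brightest probe set, grouped by role; circles are LPS against unstimulated, squares LPS+8-Br-cAMP against LPS, open symbols have 1 array at the floor and dotted lines are 2-fold. Cd86, Sppl2a and Marchf8 pass 2-fold with LPS, and Cd83, H2-Ea and H2-Eb2 with 8-Br-cAMP.

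Of 15 genes that act on Ciita, 14 had a probe set of their own. With LPS 4 of these passed 2-fold upward and 1 downward, and the same 5 genes passed in the same directions under all 6 scalings. The shares of all genes were 6.64% upward and 13.0% downward. Irf1, which binds the interferon-responsive Ciita promoter, read 463 unstimulated, 3870 with LPS and 1801 with both agents, 8.35-fold higher with LPS and then 2.15-fold lower. Ifng, the cytokine that induces Ciita in many cells, was at 126 with LPS and under the floor on both other arrays. Ifngr1, its receptor chain, read 1073, 196 and 500, 5.49-fold lower with LPS. Jak2, a kinase of that receptor, was 3.92-fold higher, and Socs1, an inhibitor of such kinases, was under the floor unstimulated and read 661 and 647 on the others.

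With LPS+8-Br-cAMP against LPS 3 of these genes passed 2-fold upward and 4 downward, where 6.49% and 5.81% of all genes did. Ifng, Irf8 and Spi1 were past it downward under all 6 scalings, and those upward under all but the deposited signals. Spi1, a factor of the dendritic cell promoter of Ciita, read 555, 770 and 275, 2.80-fold lower with 8-Br-cAMP. Irf8, its partner, read 1479, 2455 and 998, 2.46-fold lower, and its second probe set was 2.22-fold lower. Irf1 and Ifng were the other genes lower. Irf4, a relative of Irf8, read 203, 222 and 592, a difference of 1.41, but 0.28 by its dimmer probe set. Usf1, which binds the Ciita promoter beside Irf1, read 90.5, 51.9 and 122, and Ifngr1 was higher by 1.35. Over the same arrays Ciita itself differed by -0.19 by its brightest probe set. Its 2 dim probe sets, under the floor with LPS+8-Br-cAMP, were at least 1.63-fold and 1.75-fold lower.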

How the data were processed

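The authors deposited 1 intensity per probe set and array, unlogged, from MAS5 per the submitters' processing notes, whose version and settings the sources used here do not give. Of 45101 probe sets, 64 controls were left out. Each array was scaled to the average of the 3 means trimmed by 2% at each end, and signals were floored at the highest scaled median, 32.5, before log2 was taken. A gene was measured when its brightest probe set exceeded the floor on 1 of the arrays compared, and was counted as higher or lower at 2-fold. With 1 array per condition no test was run, and precision is limited by how few arrays there are. The named genes were all 9 members, listed pathway genes and Ciita regulators, and the 3 genes nearest to a member past 2-fold. The wider list of 24 genes, the 15 Ciita regulators and 8 marker lists, like the members, were chosen with earlier results of these data known. GEO's platform annotation named the probe sets, and promoter windows came from RefSeq. The steps were tested on simulated data. Alternatives were 5 scalings, 2 floors, a pseudocount, 2 choices of probe set and thresholds of 1.5-fold and 3-fold. Python 3.11.15 was used with pandas 2.3.3 and statsmodels 0.14.6. Summed scaled signals of the remaining marker lists follow in the order BMDC(-), BMDC(+LPS), BMDC(+LPS+cAMP). Plasma cell markers gave 5803, 5100 and 7399, though 3 of 5 measured were lower from the second to the last, median -0.84. Of all genes 53.2% were higher from the second to the last. Between those arrays Xbp1 (2043 to 3401) and Sdc1 (1540 to 3864) were higher. Jchain (528.5 to under the floor), Igha (881 to 57.0) and Mzb1 (88.6 to 49.4) were lower. Plasmacytoid markers gave 712, 1431 and 1062, and eosinophil markers 1348, 1438 and 451. T and NK cell markers gave 272, 179.8 and 159.6.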

Additional observations from a re-analysis of the deposited data

How the results depend on the processing

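With LPS the members past 2-fold numbered 1 by trimmed mean and 2 under quantile normalization and at a 1.5-fold threshold. They numbered 0 with a pseudocount, with the mean over probe sets and at a 3-fold threshold. Of all genes 19.6% were past the threshold by trimmed mean, 17.7% under quantile normalization and 42.5% at 1.5-fold. The shares were 14.3% with a pseudocount, 16.5% with the mean over probe sets and 6.77% at 3-fold. The members' median with LPS, 0.23, was 0.046 under cyclic loess, -0.16 under spike scaling and -0.057 as deposited. With LPS+8-Br-cAMP against LPS the count of 0 became 2 as deposited (Ciita and Marchf1, both lower) and 1 at 1.5-fold. Of all genes 28.9% and 33.9% were past the threshold in those 2 settings. The members' median there, 0.19, was -0.12 under quantile normalization and cyclic loess, 0.39 under spike scaling and -0.62 as deposited. The median of all genes was -0.65 as deposited. With LPS+8-Br-cAMP against unstimulated the count of 0 became 1 under quantile normalization, 2 as deposited and 3 at 1.5-fold. The shares of all genes were 24.1%, 56.1% and 48.0% in that order. The members' median there, 0.33, was 0.019 under quantile normalization, 0.055 under cyclic loess and -0.77 as deposited. The median of all genes was -1.08 as deposited. Of all alternatives to the members' counts and medians, 46 stayed within the limits set and 20 moved past them. For a count the limit was 1.5 times. For a median it was the error of 1 probe set divided by the square root of the number of members. The 2 other floors could not move these results, because the brightest probe set of each member lay above both. The LPS count also stayed at 1 under spike scaling and as deposited, though its member changed from Marchf1 to H2-DMa. H2-DMa was lower and Marchf1 higher with LPS in all 10 alternatives each. Spikes on the 8-Br-cAMP array were 0.496 times those on the LPS array, so the deposited signals carry its dimness. With no replicates, leaving out a library was not possible. No paired analysis was possible because each group had 1 array. When only probe sets without the suffix _s or _x were used, H2-Aa had none.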

Other observations

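A few pathway probe sets lay outside the description above because the annotation gives them to several genes. A second probe set shared by H2-DMb2 and H2-DMb1 read 533 unstimulated, 617 with LPS and 343 with both agents, a log2 difference of -0.85 in the second comparison where the brighter shared probe set differed by -0.069. The probe set shared by H2-Ob and Gm20506 read 82.6, 92.1 and 61.1 in the same order, lowest with 8-Br-cAMP as was the probe set of H2-Ob alone.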
